A study of Mus musculus with 18 samples.

Results

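The miRNA repertoire of floxed splenic B cells was compared with that of floxed mouse embryonic fibroblasts (MEF), using 4 of the 18 small RNA libraries of a study on the oncogenic miR-17~92 cluster. The B cells gave 1 library and the MEF gave 3, called FL3, FL4 and FL5 as in the deposited table. All 4 libraries carried floxed, intact alleles of the cluster (fl/fl), and the labels give Eu-myc mice as the strain for every library of the study, fibroblasts included. The other B-cell and MEF libraries used below had the cluster deleted (d/d) or overexpressed (OV), with 1 B-cell library and 3 MEF libraries for each genotype. Cells were grown under the standard conditions of each cell line, spike-ins were added to total RNA, small RNAs were cut from a gel and libraries were made with the NEBNext kit, per the labels. All miRNAs listed in both the B-cell and the MEF tables were taken, 714 in all, out of 756 in the B-cell table and 1204 in the MEF table. They held 99.99% of the reads of the B-cell library and from 99.89% to 99.90% of those of the MEF libraries.

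With 1 B-cell library there is no test, and no p-value is given. The labels do not say whether the 3 MEF libraries came from separate cultures, so their spread may be technical. The tables of B cells and MEF were normalized separately, and cell type cannot be told apart from the set of libraries it was sequenced in. Levels are counts per 1000000 miRNA reads of a library (CPM), and shares of reads, not of molecules. The library held 10612256 reads for B cells, and 18609610, 17497762 and 17428016 reads for FL3, FL4 and FL5.

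Mature miRNAs are strands of about equal length cut from a hairpin by Drosha and Dicer, and the seed, bases 2 to 8 from the 5′ end, does most of the pairing with target mRNAs. Many miRNAs are made from clusters, in which several hairpins share a primary transcript. The repertoire of a cell is usually dominated by few miRNAs, and some are restricted to a lineage, as miR-142a is to blood cells and miR-143 and miR-145 are to smooth muscle and other mesenchymal cells. The miR-17~92 cluster is a target of MYC. The Eu-myc transgene places Myc under the immunoglobulin heavy-chain enhancer, which is active in B lymphocytes.

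The sequences that the results turn on are given here from RefSeq (GRCm38.p6), with the seed in capitals, since families that share a seed are compared below. RefSeq had a mature sequence for 636 of the 714 miRNAs. Those of the blood cell hairpin come first.
miR-142a-5p: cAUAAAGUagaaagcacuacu
miR-142a-3p: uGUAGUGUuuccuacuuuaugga
Next are 6 members of the let-7 family, which share the seed GAGGUAG.
let-7a-5p: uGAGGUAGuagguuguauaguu
let-7b-5p: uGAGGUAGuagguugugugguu
let-7c-5p: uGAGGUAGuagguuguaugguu
let-7e-5p: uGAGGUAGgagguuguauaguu
let-7f-5p: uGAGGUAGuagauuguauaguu
let-7i-5p: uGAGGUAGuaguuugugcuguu
Positions are counted from 1 at the 5′ end of let-7a-5p, whose base is written first. The differences from let-7a-5p are A19G in let-7c-5p, U9G in let-7e-5p and G12A in let-7f-5p. Those in let-7b-5p are A17G and A19G.
The miR-92 and miR-17 seeds are each made from the miR-17~92 cluster and from other clusters.
miR-92a-3p: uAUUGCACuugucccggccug
miR-25-3p: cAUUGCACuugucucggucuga
miR-363-3p: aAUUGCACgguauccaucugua
miR-92b-3p: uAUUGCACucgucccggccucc
miR-17-5p: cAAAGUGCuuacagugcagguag
miR-20a-5p: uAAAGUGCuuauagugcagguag
miR-20b-5p: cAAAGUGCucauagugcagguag
miR-106a-5p: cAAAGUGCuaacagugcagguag
miR-93-5p: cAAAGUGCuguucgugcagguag
The miR-99 and miR-100 strands below share a seed and were at opposite ends of their family in the B cells.
miR-99b-5p: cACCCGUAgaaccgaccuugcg
miR-100-5p: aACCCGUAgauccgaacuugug
The last 6 are strands that differ between 2 hairpin copies of a miRNA, so that reads can be assigned to a copy.
miR-181a-1-3p: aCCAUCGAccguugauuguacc
miR-181a-2-3p: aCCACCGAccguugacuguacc
miR-30c-1-3p: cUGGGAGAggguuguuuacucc
miR-30c-2-3p: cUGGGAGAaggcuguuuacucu
miR-92a-1-5p: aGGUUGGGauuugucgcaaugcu
miR-92a-2-5p: aGGUGGGGauugguggcauuac

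The label B cells was checked against blood cell markers. MiR-142a, the defining miRNA of blood cells, was at 8501 CPM for its 5p strand and 6110 CPM for its 3p strand in the B-cell library, against 1.34 CPM or less in each MEF library. Of the 10 B lymphocyte entries that passed the filter described below, 7 were at least 4-fold higher in B cells and 1 was lower, while 27.4% of all miRNAs that passed it were higher and 37.3% lower. MiR-150-5p, a miRNA of mature lymphocytes, was at 6.22 CPM, or 66 reads (95% Poisson interval 4.81 to 7.91 CPM). MiR-155-5p, which is induced on activation of lymphocytes, was at 59.6 CPM in B cells and at 421, 403 and 435 CPM in the MEF libraries. MiR-223, the defining miRNA of the myeloid lineage, had 0 reads on either strand, which allows up to 0.283 CPM (3 reads). MiR-451a, the defining miRNA of red cells, had 17 reads (1.602 CPM), and miR-511-3p and miR-511-5p of macrophages had 12 and 15 reads. MiR-126a-3p, an endothelial and progenitor miRNA, was at 397 CPM against 113, 109 and 102 CPM in MEF, a difference of 1.87 on the log2 scale that did not reach the 4-fold limit. Its 5p strand did, at 19.8 CPM against 2.58, 2.63 and 1.84 CPM (2.64). The fibroblast markers miR-199a-3p and miR-143-3p were at 34.1 and 130 CPM in the B cells against at least 7930 and 44632 CPM in each MEF library. Not all markers of that list were lower in B cells. MiR-10a-5p was at 20676 CPM against 14735, 13566 and 13504 CPM (0.57), and miR-10b-5p differed by 0.12.

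Differences were taken on the log2(CPM + 1) scale, B cells minus the mean of the 3 MEF libraries, which understates the difference of miRNAs with few reads. The 314 miRNAs whose B-cell value and MEF mean averaged at least 10 CPM were kept. A miRNA almost absent from a cell type could pass only through the other, and then also exceeded the 4-fold limit below. Where all kept entries of a list or cluster were called the same way, this can follow at least in part from the filter. A miRNA was called when the difference was at least 4-fold (2 on the log2 scale) and the B-cell value lay beyond all 3 MEF libraries. By this rule 86 of the 314 were higher in B cells (27.4%) and 117 were lower (37.3%), so 64.6% were called in all. The B-cell library lay outside the range of the MEF libraries for 309 of the 314 (98.4%). The median absolute difference was 3.04, while the median SD among the MEF libraries was 0.11 on the same scale. Differences were at least 16-fold for 30 miRNAs higher and 94 lower in B cells, and at least 64-fold for 15 higher and 51 lower. A further 61 miRNAs differed by less than 2-fold and 50 by between 2-fold and 4-fold.

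The median difference over the 314 was 0.31. With TMM factors differences shifted by −0.81, less at few reads, the median became −0.77, and 64 miRNAs were called higher and 135 lower. Small differences therefore carry no direction, and 35 of the 314 changed sign under that scaling. In bulk libraries, fewer cells of a type and less RNA per cell cannot be told apart.

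**Figure D1:**
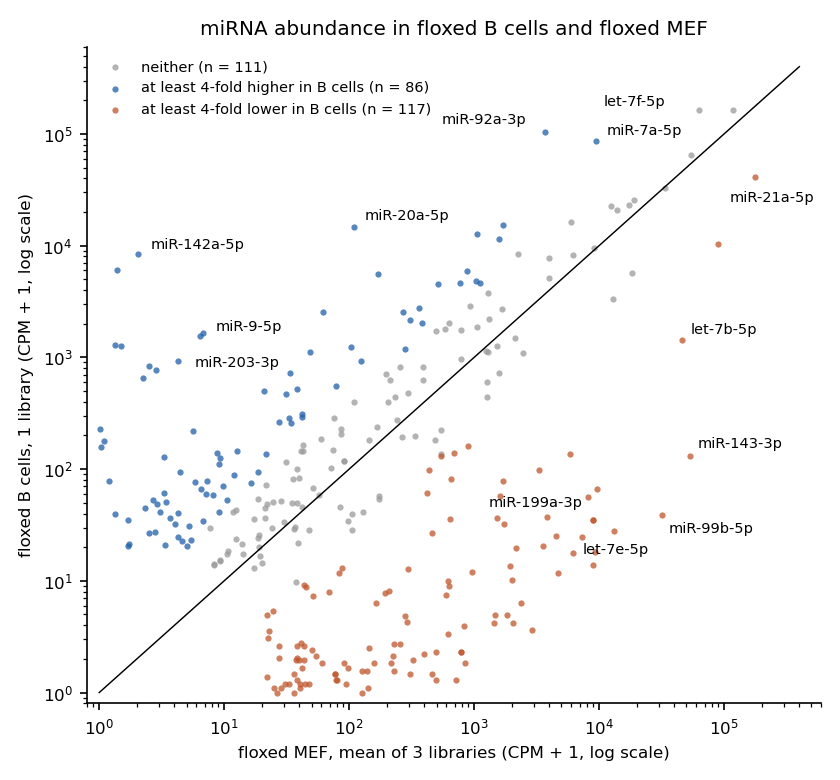
Each point is 1 of the 314 kept miRNAs, with the mean CPM + 1 of the 3 floxed MEF libraries on the x axis and the CPM + 1 of the floxed B-cell library on the y axis, both on log scales. The 86 called higher lie above the line of equality and the 117 called lower lie below it, with miR-142a-5p at 8501 CPM in B cells and miR-99b-5p at 32049 CPM in MEF among the farthest from it.

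Few miRNAs held most reads in both cell types. The 10 most abundant took 72.8% of reads in B cells and 68.1%, 69.2% and 68.7% in FL3, FL4 and FL5. It took 27 miRNAs to reach 90% of the B-cell reads and 34 or 35 in MEF. Of the 10 most abundant, 6 were common to both cell types, namely let-7a-5p, let-7f-5p, let-7g-5p, let-7i-5p, miR-21a-5p and miR-30d-5p. The other 4 of the B-cell library were miR-92a-3p, miR-7a-5p, miR-26a-5p and miR-25-3p, and those of MEF were let-7b-5p, let-7c-5p, miR-143-3p and miR-99b-5p. The first place went to let-7i-5p in B cells, with 16.4% of reads, and to miR-21a-5p in MEF, with 17.90%, 17.83% and 17.43%. The 86 miRNAs called higher held 32.2% of B-cell reads and 2.46% of MEF reads. The 117 called lower held 5.49% of B-cell reads and 54.9% of MEF reads, and the 111 called neither way held 62.2% and 42.5%.

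MiR-142a was at the upper extreme. Its hairpin lies at chr11:87756864-87756927 on the plus strand, in an intron of the non-coding gene Mir142hg (positions here and below from RefSeq, GRCm38.p6, and host genes from GENCODE M21, since no label or header names the build behind the deposited tables). The 3p strand was at 6110 CPM in B cells and at 0.70, 0.34 and 0.11 CPM in FL3, FL4 and FL5, a difference of 12.13. The 5p strand was at 8501 CPM against 1.34, 1.03 and 0.75 CPM, a difference of 12.04. Together the 3 MEF libraries held 21 reads of the 3p strand and 56 of the 5p strand.

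The miR-106a to miR-363 cluster on the X chromosome, a paralogue of miR-17~92, was the list with the highest median difference, 8.07. Its 5 kept entries were all called higher, against 27.4% of all 314. They summed to 3706 CPM in B cells and to 3.12, 2.11 and 2.98 CPM in MEF, so they passed the filter through the B cells only. MiR-363-3p was at 1294 CPM against 0.59, 0.06 and 0.34 CPM (9.95). MiR-20b-5p was at 1268 CPM against 0.59, 0.46 and 0.46 CPM (9.72), and miR-106a-5p at 763 CPM against 1.88, 1.54 and 2.12 CPM (8.07). The other 2 entries had almost no MEF reads. MiR-363-5p had 2405 reads in B cells and 1 in the MEF libraries together, a depth-adjusted ratio of 12132 with a 95% counting interval from 2175 to 479403. MiR-18b-5p had 1647 reads against 2, a ratio of 4154 (1148 to 34332). The cluster spans chrX:52741693-52742567 on the minus strand. Its miR-106a-5p differs from miR-17-5p only by U10A, and miR-20b-5p from miR-20a-5p by U1C and U10C, counted from the 5′ end with the miR-17~92 member first. Reads of such near-identical strands can be split between entries by the counting.

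The miR-17~92 members were also all called higher, 10 of 10 kept entries with a median of 4.36, against 27.4% of all 314. They summed to 125757 CPM in B cells and 4088 ± 910 CPM in MEF (SD, n = 3). The entries of this list include miR-92a-2-5p, which comes from the X-linked cluster, and miR-92a-3p and miR-19b-3p, which both clusters make. MiR-92a-3p was at 103954 CPM in B cells and at 4753, 3003 and 3407 CPM in MEF (4.83). MiR-20a-5p was at 14804 CPM against 111, 107 and 108 CPM (7.07), and miR-17-5p at 5629 CPM against 159, 185 and 162 CPM (5.06). The MEF libraries were close to each other for miR-20a-5p and miR-17-5p, less so for miR-92a-3p, and the B-cell library was far above all of them. MiR-18a-5p was at 218 CPM against 5.0, 4.57 and 4.36 CPM (5.28), miR-19b-3p at 466 CPM against 31.3, 29.1 and 31.0 CPM (3.89) and miR-19a-3p at 263 CPM against 25.9, 28.7 and 25.4 CPM (3.26). Leaving out the X-linked miR-92a-2-5p, the differences ran from 2.20 for miR-18a-3p to 7.07 for miR-20a-5p. In contrast, 0 of the 6 kept entries of the third paralogue, miR-106b~25 in Mcm7, were called, with differences from 0.63 to 1.67. With TMM factors the median of that list was 0.03 and 3 of its 6 entries changed sign.

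Among the other miRNAs at the upper extreme were miR-139, in an intron of Pde2a, and miR-130b, which neighbours miR-301b. MiR-139-5p was at 831 CPM in B cells against 1.29, 1.54 and 1.72 CPM in MEF (8.37), and miR-139-3p at 654 CPM against 1.34, 1.03 and 1.32 CPM (8.20). MiR-130b-5p was at 1547 CPM against 8.54, 3.43 and 4.30 CPM (7.99), with a larger spread among the MEF libraries (SD 0.58 on the log2 scale). The members of miR-130b's cluster on chromosome 16 that were kept were all higher, at 4.94 for miR-301b-5p and 6.05 for miR-130b-3p. MiR-130a-3p, which has a hairpin elsewhere, had 0 reads in B cells and 29.1, 22.4 and 24.7 CPM in MEF.

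The B lymphocyte list had a median of 2.93 over 10 kept entries, against 0.31 over all 314. MiR-181a-5p and miR-181b-5p, which act in lymphocyte development, were at 2542 and 2771 CPM. In MEF they were at 286, 239 and 276 CPM for miR-181a-5p (3.25), and at 377, 353 and 358 CPM for miR-181b-5p (2.93). MiR-146a-5p, a regulator of NF-kB signalling, was at 551 CPM against 83.3, 71.6 and 78.7 CPM (2.81), and miR-342-3p at 259 CPM against 34.2, 28.7 and 37.2 CPM (2.92). The exception was miR-155-5p, which was lower in B cells by the values above (−2.79). In the same contrast within the other genotypes, miR-146a-5p was not called in OV cells (0.37). MiR-342-3p was called in neither d/d (1.91) nor OV cells (1.27). Of the 10 entries kept in each, 6 were called higher in d/d and 5 in OV cells.

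MiRNAs of other tissues were also higher in B cells. Of the epithelial list, 3 of 3 kept entries were called higher, led by miR-203-3p at 923 CPM against 3.28, 3.32 and 3.21 CPM (7.76). All 3 passed the filter through the B cells only, and 27.4% of all 314 were higher. MiR-200c-3p was at 127 CPM against 2.58, 2.06 and 2.29 CPM (5.28), and miR-200b-3p at 109 CPM against 8.11, 8.06 and 7.86 CPM (3.61). MiR-9-5p, best known from the nervous system, was at 1661 CPM against 4.89, 6.51 and 5.80 CPM (7.95). The other B-cell libraries held less of it, 135 CPM in d/d and 877 CPM in OV. MiR-129-5p, also of the neural list, was lower in B cells, at 9.05 CPM against 671, 568 and 625 CPM (−5.95).

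Some widely expressed miRNAs were higher as well. MiR-7a-5p was at 85965 CPM against 9740, 9251 and 9191 CPM in MEF (3.19). Of the 6 kept entries often used as references in normalization, 1 was called, miR-191-5p, at 12790 CPM against 1044, 1026 and 1093 CPM (3.60). MiR-423-5p, of the same list, was at 9577 CPM against 8486, 8964 and 9615 CPM (0.09), within the MEF range. MiR-455-5p, listed here with fibroblast miRNAs, was higher in B cells, at 2570 CPM against 72.4, 51.7 and 59.2 CPM (5.39).

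**Figure D2:**
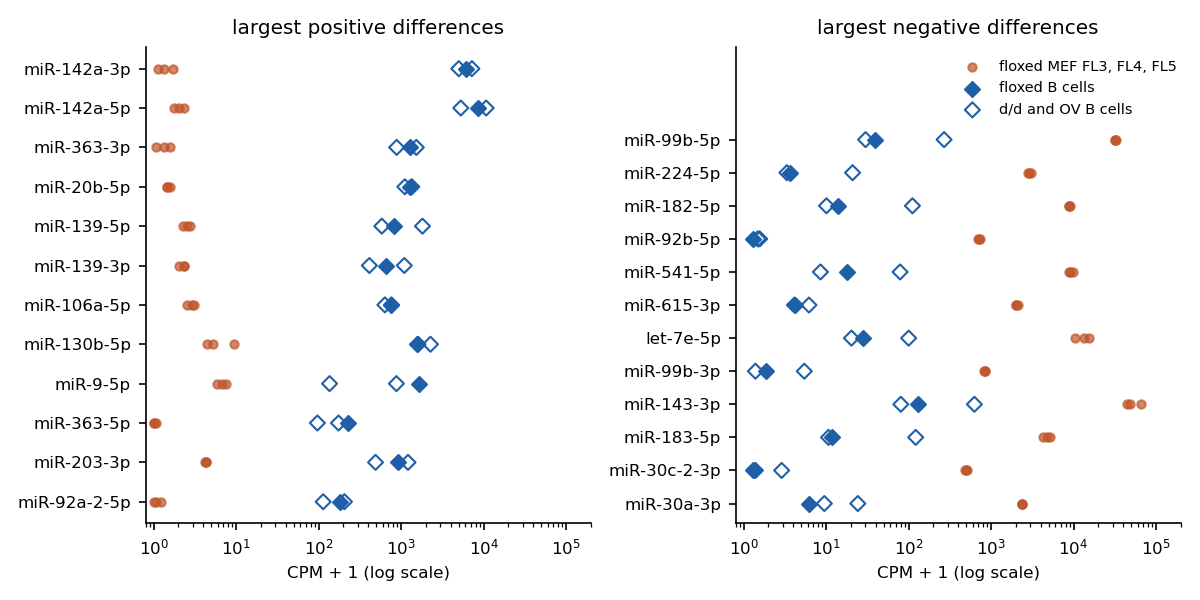
CPM + 1 on a log scale for the 12 miRNAs with the largest positive (left) and the 12 with the largest negative (right) difference, among called miRNAs at 100 CPM or more in the higher group. Filled diamonds are the floxed B-cell library, open diamonds the d/d and OV B-cell libraries and circles the floxed MEF libraries FL3, FL4 and FL5, and in each of the 24 lines all B-cell libraries lie on the same side of the MEF libraries.

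The lower extreme was led by miR-99b-5p, at 38.2 CPM in B cells and 32331, 32202 and 31613 CPM in MEF (−9.68). Its cluster mates were at the lower extreme too. Let-7e-5p was at 27.1 CPM against 10543, 15394 and 13474 CPM (−8.85), and miR-125a-5p, in an intron of Spaca6 with let-7e, was at 23.7 CPM against 6617, 7873 and 7339 CPM (−8.20). Of the 8 kept entries of the miR-99, miR-100 and miR-125 list, 7 were called lower, against 37.3% of all 314, with a median of −7.44. The eighth, miR-100-5p, was at 3340 CPM against 14013, 12230 and 12165 CPM (−1.94), just under the limit.

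The cluster of miR-183, miR-96 and miR-182 on chromosome 6, best known from sensory organs, was lower by a median of −8.63, with 3 of 3 kept entries called. MiR-182-5p was at 12.8 CPM against 8701, 8864 and 9023 CPM (−9.33), and miR-183-5p at 10.8 CPM against 5133, 4249 and 4745 CPM (−8.63). MiR-221 and miR-222 of the X chromosome, which repress the cell-cycle inhibitor p27, had 4 of 4 entries lower. The share over all 314 was 37.3%. Kept entries of both clusters passed the filter through their MEF values, so their being all lower follows in part from it. MiR-222-3p was at 16.6 CPM against 5830, 6367 and 6239 CPM (−8.45), and miR-221-3p at 9.24 CPM against 1669, 2269 and 2072 CPM (−7.60). Between d/d B cells and d/d MEF the differences were smaller, −3.74 for miR-222-3p and −2.60 for miR-221-3p. MiR-224-5p, in an intron of Gabre, was at 2.64 CPM against 2791, 3074 and 2905 CPM (−9.65).

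The lists of miR-143 and miR-145 and of miR-199 and miR-214 were low in B cells throughout. Over all 314 kept miRNAs, 37.3% were called lower. The miR-143 and miR-145 list had 4 of 4 entries lower (median −7.18), with miR-143-3p at 130 CPM in B cells and 65379, 44632 and 48959 CPM in MEF (−8.64). MiR-145a-3p was at 1.32 CPM against 807, 792 and 748 CPM (−8.40). The miR-199 and miR-214 list, of which miR-199a-2 and miR-214 lie in the non-coding RNA Dnm3os, had 6 of 6 entries lower (median −7.08). MiR-199a-3p was at 34.1 CPM against 7930, 9616 and 9133 CPM (−7.98). MiR-199b-3p has the same sequence, with 0 differences, and nearly the same values, so these 2 entries are not separate measurements. MiR-214-3p had 6 reads in B cells (0.57 CPM) and was at 257, 202 and 219 CPM in MEF (−7.17), and miR-214-5p had 0 reads in B cells.

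The miRNAs of the Hox gene clusters, which mark position along the body axis in fibroblasts, did not behave alike. MiR-615-3p was at 3.20 CPM in B cells against 2027, 2017 and 2106 CPM (−8.93), and miR-196a-5p at 25.5 CPM against 454, 473 and 451 CPM (−4.12). MiR-10a-5p, in contrast, was abundant in both, at 20676 CPM against 14735, 13566 and 13504 CPM (0.57), a difference that changes sign with TMM factors. In all, 4 of 7 kept entries of this list were lower and 0 higher, against 37.3% and 27.4% of all 314.

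The imprinted Dlk1-Dio3 clusters of chromosome 12, expressed from the maternal allele and typical of embryonic and mesenchymal cells, had 30 of 30 kept entries lower in B cells, with differences from −9.0 to −3.99 and a median of −5.77. They summed to 106 CPM in B cells and to 25349, 20919 and 22102 CPM in MEF. The 30 kept entries passed the filter through their MEF values, so their being all lower follows in part from it. Lower calls made up 37.3% of all 314. A further 57 entries of these clusters were in the MEF table alone. MiR-541-5p was at 17.0 CPM against 9827, 8721 and 9057 CPM (−9.0). MiR-127-3p was at 19.5 CPM against 4157, 3128 and 3443 CPM (−7.44), and miR-379-5p at 18.7 CPM against 2527, 1940 and 1978 CPM (−6.76). MiR-409-3p was at 3.20 CPM against 1550, 1341 and 1402 CPM (−8.41) and miR-434-5p at 3.96 CPM against 1695, 1337 and 1351 CPM (−8.20). No MEF library reached down to the B-cell value in any of these. Of the Sfmbt2 intron cluster, 60 entries were in the MEF table alone and only 2 were kept, 1 called each way.

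Further fibroblast miRNAs followed a wide range. Of 17 kept entries of the remaining fibroblast list, 12 were lower and 2, both of miR-455, were higher, against 37.3% and 27.4% of all 314. MiR-21a-5p, in an exon of the annotated gene Vmp1 and the most abundant miRNA of MEF, was at 41220 CPM in B cells against 179016, 178283 and 174321 CPM (−2.10). With the miR-17~92 reads left out of the sums this difference was −1.92 and no longer passed the limit. MiR-218-5p, of the Slit2 and Slit3 introns, was at 1.32 CPM against 812, 746 and 789 CPM (−8.40), and miR-22-3p at 77.3 CPM against 1755, 1612 and 1762 CPM (−4.45). MiR-148a-3p was at 54.8 CPM against 11875, 5283 and 7300 CPM (−7.11), and miR-152-3p, of the same family, at 31.1 CPM against 1972, 1549 and 1685 CPM (−5.75). MiR-148b-3p, the remaining member, was at 2031 CPM against 691, 601 and 607 CPM (1.68).

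The muscle miRNA miR-206-3p was a MEF miRNA here, at 3.96 CPM in B cells and 1881, 1773 and 1829 CPM in MEF (−8.53). The kept erythroid entries, all of miR-486a or miR-486b, were likewise lower in B cells, 3 of 3, against 37.3% of all 314. They passed the filter through MEF only. MiR-486a-5p was at 6.78 CPM against 259, 138 and 183 CPM (−4.59). The hairpins miR-486a and miR-486b overlap and their counts were almost the same, so these entries are not separate measurements. MiR-451a, also erythroid, went the other way (1.33) but had only 17 reads in B cells and was not kept. MiR-351-5p of the cluster that runs from miR-322 to miR-503 on the X chromosome was at 97.2 CPM against 2951, 3564 and 3382 CPM (−5.07). Of the 8 kept entries of that cluster 4 were lower, against 37.3% of all 314. Differences in the miR-23, miR-24 and miR-27 clusters ran from −2.45 to 0.42. There 3 of 10 kept entries were lower, near the share over all 314, among them miR-23a-3p at 139 CPM against 708, 727 and 622 CPM (−2.29).

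**Figure D3:**
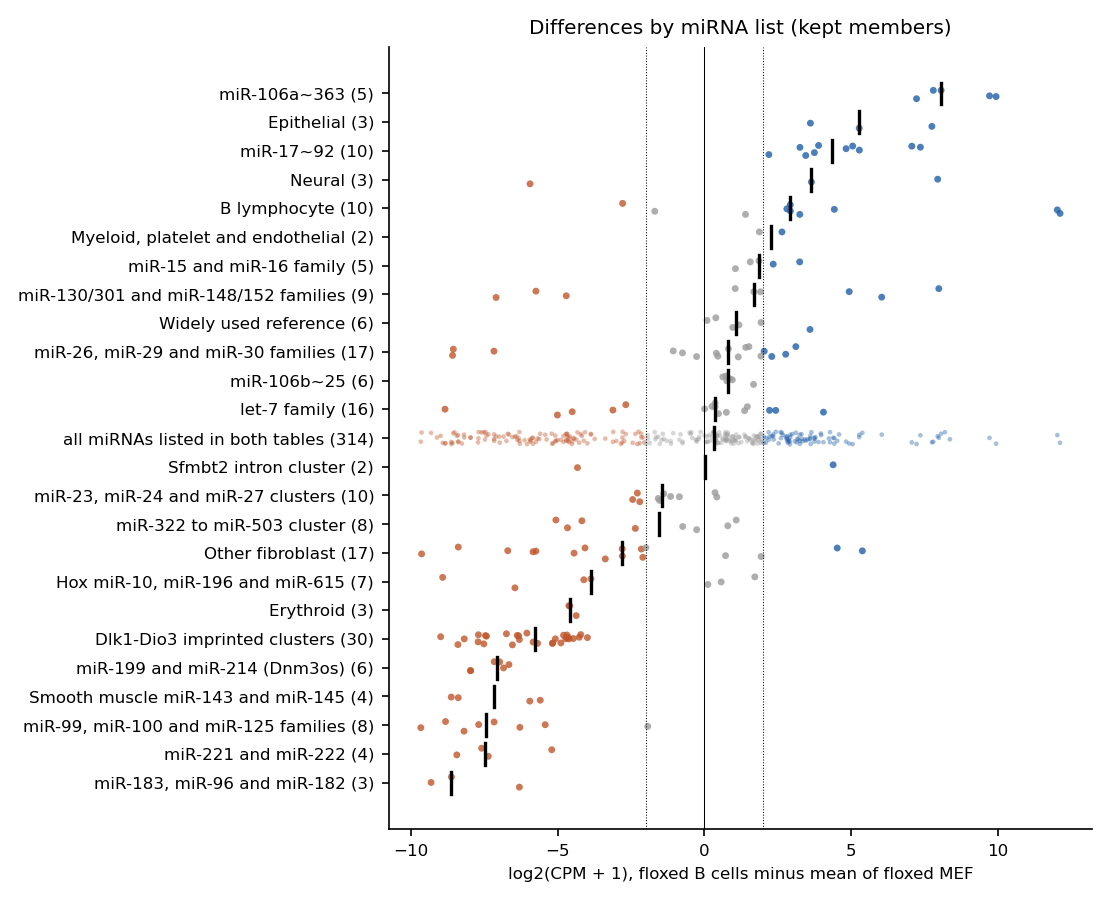
Difference in log2(CPM + 1), B cells minus the mean of MEF, for the kept members of each list (number in parentheses), with a black bar at the median and dotted lines at the 4-fold limit. The list medians run from −8.63 for miR-183, miR-96 and miR-182 to 8.07 for the cluster of miR-106a and miR-363, with 0.31 over all 314 kept miRNAs. The let-7 median of 0.36 turns negative (−0.44) with TMM factors, and that of the Sfmbt2 intron cluster, 0.03, does so too (−0.53).

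Seed families were summed next, since members with the same seed can pair with the same targets. Sequences covered 94.7% of B-cell reads and 89.5% of MEF reads. Over the miRNAs with a sequence, 59 seeds had at least 1000 CPM in a cell type, of which 38 differed at least 4-fold. This is near the share of single miRNAs called, 64.6% of 314. The let-7 seed GAGGUAG was the largest in both, with 45.8% of B-cell reads and 40.3%, 44.0% and 43.4% of the reads of FL3, FL4 and FL5. The sums lay close together while the members did not. Let-7f-5p was at 163417 CPM against 62082, 64498 and 63322 CPM (1.37), let-7d-5p at 16449 CPM against 5831, 6107 and 5967 CPM (1.46), and miR-98-5p at 4813 CPM against 984, 1035 and 1080 CPM (2.22). The last lost its call with TMM factors (1.41). Let-7c-5p was at 10282 CPM against 85482, 92229 and 91124 CPM (−3.12), and let-7b-5p at 1425 CPM against 43787, 47559 and 47242 CPM (−5.02). With let-7e-5p at −8.85, the members spanned 11.07 on the log2 scale. Strands as alike as let-7a-5p and let-7c-5p, which differ by A19G, can exchange reads through sequencing or mapping errors.

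The miR-92 seed AUUGCAC took 12.9% of B-cell reads and 1.82%, 1.59% and 1.65% of MEF reads. Its leading member was not the same. MiR-92a-3p made up 80.9% of the family in B cells, whereas miR-25-3p of miR-106b~25 made up 74.1% in MEF. MiR-25-3p itself was at 22752 CPM in B cells against 12767, 12304 and 12506 CPM (0.86). MiR-92b went the other way, with miR-92b-3p, which carries the seed, at 7.92 CPM in B cells against 665, 608 and 607 CPM (−6.14). The opposite strand, miR-92b-5p, was at 3 reads in B cells against 689, 722 and 732 CPM in MEF, a ratio of 2526 (counting interval 864 to 12247) in favour of MEF.

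The miR-17 seed AAAGUGC took 2.56% of B-cell reads and 0.102%, 0.170% and 0.140% of MEF reads. MiR-20a-5p led it in B cells with 57.9% of the family, and miR-93-5p in MEF with 67.5%. MiR-93-5p was at 2873 CPM in B cells against 657, 1179 and 940 CPM (1.67).

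The seed ACCCGUA of miR-99 and miR-100 took 0.339% of B-cell reads and 4.74%, 4.53% and 4.47% of MEF reads. MiR-100-5p was 98.5% of it in B cells, while miR-99b-5p was 70.0% of it in MEF. Of the miR-30 family, miR-30d-5p was the most abundant in both cell types, at 25877 CPM in B cells against 18938, 18610 and 19094 CPM (0.45, a difference that changes sign with TMM factors). The other members were far apart. MiR-30c-5p was at 8449 CPM against 2598, 1960 and 2157 CPM (1.93), and miR-30a-5p at 64.9 CPM against 10391, 8375 and 10028 CPM (−7.18). MiR-30e-5p was at 5915 CPM against 924, 745 and 944 CPM (2.77, and 1.96 with TMM factors). Of the 32 seeds with at least 2 kept members among the matched sequences, 6 had members called in opposite directions, among them the let-7 and miR-92 seeds and that of miR-30e-5p and miR-30a-5p.

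**Figure D4:**
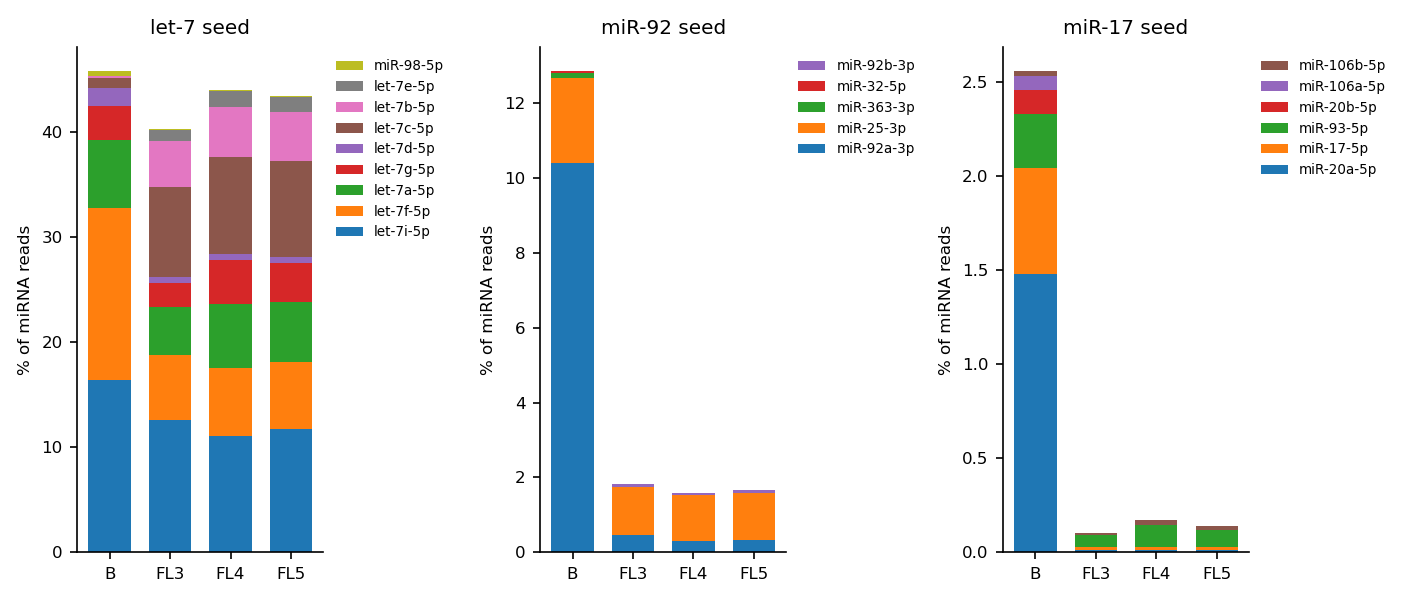
Stacked bars give the percent of all miRNA reads on the members of the let-7, miR-92 and miR-17 seeds in the floxed B-cell library (B) and in the floxed MEF libraries FL3, FL4 and FL5. The let-7 bars are of like height, 45.8% in B and 40.3% to 44.0% in MEF, with let-7b-5p and let-7c-5p thin in B, while the miR-92 and miR-17 bars are taller in B and led by other members than in MEF. The y axes differ between panels.

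Hairpins less than 10000 bases apart on a strand were grouped into clusters, and 18 clusters had at least 3 kept entries assigned to them alone. In 3 clusters every kept entry was higher in B cells (Mir17 to Mir92-1, Mir130b to Mir301b and Mir363 to Mir106a). In 5 every kept entry was lower (Mir182 to Mir183, Mirlet7e to Mir125a, Mir221 to Mir222 and the Dlk1-Dio3 stretches Mir770 to Mir136 and Mir379 to Mir3072). In the other 10 some or all entries were not called, and 0 clusters had entries called both ways. The Mir17 cluster, chr14:115043671-115044506 on the plus strand in an exon of Mir17hg, had 7 such entries with a median of 3.75. Mirlet7e to Mir125a, chr17:17830352-17830879 on the plus strand, had 4 with a median of −7.95.

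Where a miRNA has 2 hairpin copies, the strands that differ between them show which copy the reads came from. This comparison was chosen after the data had been seen, and 10 families had at least 20 such reads in each cell type. The leading copy differed in 3. For miR-30c, the copy miR-30c-1 in an intron of Nfyc (chr4:120769534-120769622, minus strand) gave 99.7% of the 3p reads in B cells (95% interval 99.2% to 99.9%, Clopper-Pearson, counting error only). In FL3, FL4 and FL5 it gave 7.01%, 7.06% and 6.86%, and miR-30c-2 (chr1:23291701-23291784, plus strand) gave the rest. Its 3p strand had 3 reads in B cells against 492, 479 and 513 CPM in MEF, a ratio of 1750 (599 to 8487) in favour of MEF. The hairpin of miR-30a, whose 3p strand was at 5.28 CPM in B cells against 2379, 2392 and 2367 CPM (−8.57), lies on the same strand of chromosome 1 (chr1:23272269-23272339).

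For miR-181a, the copy on chromosome 1 (chr1:137966455-137966541, plus strand) gave 93.2% of the 3p reads in B cells (92.6% to 93.7%) and 17.4%, 14.8% and 15.5% in MEF. The copy on chromosome 2 (chr2:38852735-38852810, plus strand) gave the rest. For the 3p strands of the adjoining miR-181b copies the MEF split was more even, with 90.7% from chromosome 1 in B cells and 54.8%, 60.0% and 43.5% in MEF, over only 138 MEF reads in all. The 3p strands of the miR-181a copies differ by U5C and U16C, counted from the 5′ end with miR-181a-1-3p first.

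For miR-92a, the 5p strand of the copy in miR-17~92 gave 30.3% of the reads in floxed B cells (28.6% to 32.1%), and the X-linked copy gave 69.7%. In the MEF libraries the miR-17~92 copy gave 97.3%, 98.8% and 100%, over 341 reads. In the other B-cell libraries it gave 0.501% in d/d and 62.3% in OV. MiR-92a-2-5p itself was at 178 CPM in B cells and had 5 reads in MEF (7.36). Abundance of the 5p strand need not mirror that of the shared 3p strand. The leading copy was the same in both cell types for let-7a, let-7f, miR-16, miR-24, miR-26a, miR-29b and miR-181b, taking the mean of the MEF libraries (in FL5 the chromosome 2 copy of miR-181b led).

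The balance of the 2 arms of a hairpin was then compared, as log2 of 5p over 3p reads within a library, which no scaling between libraries affects. Of 99 hairpins with at least 100 reads in every library, 25 (25.3%) shifted by at least 2 and beyond all MEF libraries, 16 (16.2%) toward 5p and 9 (9.09%) toward 3p in B cells. Among the latter, miR-182 had no 3p read in B cells, and without it 24 were called, 8 of them toward 3p. The major arm itself differed in 10 hairpins, of which 5 were called, all with 5p as the major arm in B cells. Of the other 5 (miR-342, miR-199a, miR-15b, miR-30e and miR-331), miR-342 had 3p as the major arm in B cells, with 46.7% on 5p against a MEF mean of 72.0%. The 3p strands of miR-199a and miR-199b have the same sequence, so the arm balance given for either is not that of a single hairpin. MiR-30b had 58.9% of its reads on 5p in B cells and 9.47%, 9.34% and 7.46% in MEF. MiR-18a had 74.6% against 24.5%, 24.3% and 20.7%, and miR-503 had 82.1% against 34.5%, 26.9% and 32.9%. MiR-1306 had 81.1% against 35.6%, 36.1% and 37.7%, and miR-330 had 56.2% against 24.7%, 13.02% and 20.2%. In the d/d and OV B-cell libraries the 5p share of miR-30b was 54.4% and 47.0%, and that of miR-503 was 74.1% and 75.1%. Against MEF of the same genotype, the shift of miR-30b was 4.33 and 2.83 and that of miR-503 was 2.61 and 1.90. Not all shifts called in floxed cells reached 2 there. MiR-9 was at 0.96 in d/d and 2.65 in OV cells, miR-155 at −1.55 and −2.79, and miR-3057 at −0.61 and −2.75. MiR-98 (−1.16 and −0.94), miR-21a (−0.97 and −0.58), miR-1981 (−1.84 and −1.90), miR-450b (1.26 and 1.41) and miR-210 (1.74 and 1.82) reached it in neither.

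The largest shift toward 5p was that of miR-322, with 18.1% on 5p in B cells and 0.484%, 0.736% and 0.609% in MEF (5.18). Those of miR-34c (4.57), miR-20a (3.5) and miR-9 (3.42) also ranked among the first 6, with miR-30b and miR-503. That of miR-34c rested on 1 read of the 3p arm beside 1427 on 5p in B cells. It was 1.97 in d/d and 2.15 in OV cells. Toward 3p the first was miR-182 (−4.86), whose 3p arm had 0 reads beside 136 on 5p in B cells. This allows a 3p share of up to 2.21%, above the 0.030%, 0.022% and 0.022% of the MEF libraries, so a shift was not detectable at this depth. MiR-155 followed (−3.71), with 94.1% on 5p in B cells and 99.2%, 99.8% and 99.4% in MEF. MiR-1249 had 1.62% on 5p against 11.2%, 20% and 16.5% (−3.46), and miR-877 had 69.9% against 93.9%, 93.0% and 94.2% (−2.64). MiR-3057 (−3.09) and miR-1943 (−2.39) completed the first 6.

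**Figure D5:**
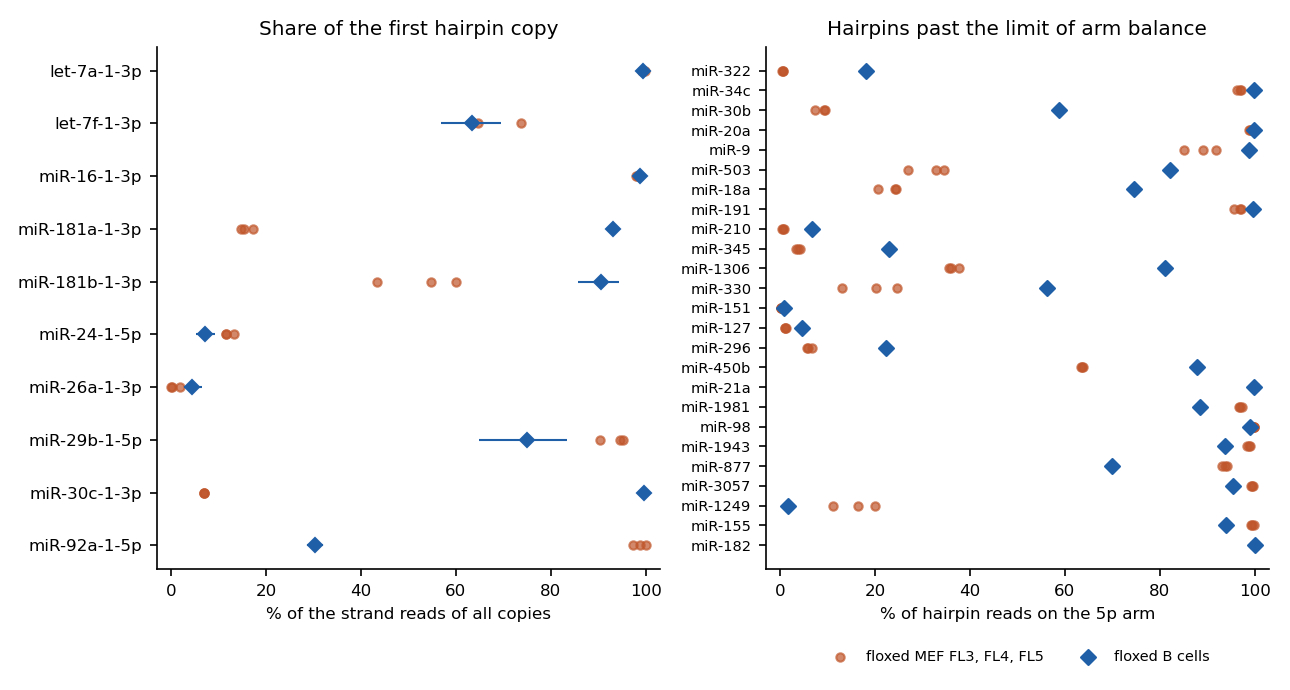
Left, percent of the copy-specific strand reads that came from the first copy of each family, with the 95% Clopper-Pearson interval for the B-cell library. Right, percent of hairpin reads on the 5p arm for the 25 hairpins that passed the limit, ordered by the shift, of which miR-182 (bottom) had no 3p read in B cells and no detectable shift. Diamonds are the floxed B cells and circles the floxed MEF libraries, and miR-30c-1-3p stands at 99.7% in B cells and 6.86% to 7.06% in MEF.

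The same contrast was made in the other genotypes, with B-cell and MEF libraries that had no part in the floxed values. By the same rule, d/d cells had 92 of 316 miRNAs higher (29.1%) and 124 lower (39.2%) in B cells, and OV cells had 68 of 306 higher (22.2%) and 123 lower (40.2%), or 68.4% and 62.4% called in all. Of the 86 called higher in floxed cells, 69 were called higher in d/d (80.2% of the floxed and 75% of the d/d calls) and 65 in OV (75.6% and 95.6%). Of the 117 called lower, 105 were called lower in d/d (89.7% and 84.7%) and 109 in OV (93.2% and 88.6%). In all 3 genotypes, 56 of the 86 and 100 of the 117 were called, and 0 were called in the opposite direction in another genotype. The miRNAs called higher in floxed but not in d/d cells include miR-17-5p, miR-18a-5p and miR-19a-3p, members of the deleted cluster. These 3 fell below the minimum of 10 CPM in d/d cells, where miR-17-5p still differed by 2.30. The 4 entries of the miR-17~92 list kept in d/d cells were all called higher. They include miR-20a-5p (3.87) and miR-19b-3p (4.20), the latter also made by the X-linked cluster. The cells of the 3 genotypes are called isogenic in the labels and may share their origin, so these are not independent samples.

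Mesenchymal and other MEF miRNAs differed between the B-cell libraries. Of 24 miRNAs of the miR-199 and miR-214, miR-143 and miR-145, and Dlk1-Dio3 lists at 100 CPM or more in MEF, all 24 were higher in the d/d than in the floxed B-cell library, by a median of 4.83-fold, against 1.32-fold over all kept miRNAs. Their floxed B-cell level was at a median of 0.384% of that in MEF (range 0% to 3.26%), with 0.573% in d/d and 0.459% in OV cells against their own MEF. MiR-143-3p was at 130 CPM in floxed, 627 CPM in d/d and 79.6 CPM in OV B cells. The rise in d/d was not particular to the mesenchymal lists. Summed over its entries, the miR-221 and miR-222 list was at 17.7-fold its floxed B-cell level in d/d B cells. The miR-183, miR-96 and miR-182 list was at 9.88-fold, while the miR-99, miR-100 and miR-125 list fell to 0.298-fold. In d/d, 34 of 305 kept miRNAs outside the cluster were at least 4-fold above the floxed B cells, and 4 were at least 4-fold below. Of the 34, 32 were called lower in floxed B cells than in MEF, against 37.3% of all 314 kept miRNAs. Both comparisons use the floxed B-cell library, so a low value there favours both and the overlap is partly built in. In OV there were 0 either way. The 4 were miR-100-5p (3340 CPM in floxed and 251 CPM in d/d), miR-9-5p, miR-27a-5p and miR-3473b, named because they are few. Each genotype has 1 B-cell library, so genotype and library cannot be told apart. What part reads from other cells have in the low B-cell values of MEF miRNAs was not tested.

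Some miRNAs were listed for 1 cell type only. The most abundant ones of the B-cell table were miR-18b-3p at 25.2 CPM, miR-7683-5p at 12.7 CPM, miR-6541 at 11.5 CPM, miR-5120 at 10.9 CPM and miR-5107-3p at 3.67 CPM. Those of the MEF table were miR-3968 at 102 CPM, miR-540-3p at 72.0 CPM, miR-3102-5p.2-5p at 69.8 CPM, miR-152-5p at 66.3 CPM and let-7k at 52.6 CPM, as means of the 3 libraries. The labels call the tables filtered, so a miRNA that a table does not list is not known to be at 0 there. Just inside the 4-fold limit lay miR-1291 (2.02), miR-26b-5p (2.04) and miR-328-3p (−2.05), and just outside it miR-34c-5p (−1.997), miR-1934-5p (1.95) and miR-212-5p (−1.94). MiR-26b-5p was at 4606 CPM in B cells against 1128, 1091 and 1146 CPM, and at 1.23 with TMM factors. The mature strands of the called and uncalled miRNAs all had a median length of 22 bases, with a median GC content of 45.5% for those higher, 47.8% for those lower and 50% for the rest.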

How the data were processed

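Mature miRNAs were measured by small RNA sequencing. The deposited values are a signal, that is read counts per miRNA divided by 1 size factor per library, and the tool DESeq2 appears in the submitters' processing notes. No source used here gives the aligner, counting tool, annotation or build. Of the deposited tables, 3 were used (B cells, and MEF without and with spike-in scaling), and 21 columns of transformed values were not. Whole reads were recovered in 100% of values, within 0.01 of a whole number. CPM were computed over each column's sum, with a pseudocount of 1 CPM and a minimum of 10 CPM. B-cell columns were matched to libraries by name, MEF columns only to the group. No test was made. Named miRNAs were the 12 extremes each way, the 10 most abundant per cell type, list members at 100 CPM or more, the 6 largest arm shifts each way and the 5 most abundant found in 1 table. The comparison, the lists and the rules were chosen with earlier results of these data known. Calling was tested on simulated data from the 714 miRNAs, where 100% of changes of 3 or 4 on the log2 scale and 0% of 77 unchanged miRNAs were called. TMM factors came from edgeR 4.0.16 in R 4.3.3. Intervals are Poisson or Clopper-Pearson at 95% and cover counting error only, as reads lack molecular identifiers.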

Additional observations from a re-analysis of the deposited data

How the results depend on the processing

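The counts of miRNAs called were 86 higher and 117 lower. They stayed within 1.5 times of these values, except that a minimum of 100 CPM gave 43 higher and 67 lower of the 171 miRNAs left, fewer because fewer were compared, and an 8-fold limit (3 on the log2 scale) gave 56 higher. The median difference of 0.31 moved to 0.55 with the miR-17~92 reads out of the sums, to 0.088 with the minimum of 100 CPM and to 0 by construction when differences were re-centred (78 higher and 122 lower). With TMM factors it reversed to −0.77, the cause of which was not tested. Hairpins with a differing arm balance numbered 25, but 13 with at least 500 reads (of 70), 66 at a limit of 1 and 13 at a limit of 3, and 24 without miR-182, an alternative chosen after seeing the data. The top-10 share in B cells was 73.7% with miR-17~92 out. Leaving out FL3, FL4 or FL5 in turn gave 86 to 87 higher, 117 to 119 lower, a median of 0.26 to 0.31, 24 to 29 hairpins and a top-10 share of 68.4% to 69.0% in MEF. Of 86 named miRNAs that were called, 4 lost the call in some setting, miR-21a-5p, miR-26b-5p (also re-centred, 1.73), miR-30e-5p and miR-98-5p (also re-centred, 1.91), and 0 reversed. No paired analysis was possible because no test was made and the B-cell library carries no replicate number. Depth limits B-cell values of a few reads, where 0 reads allow 0.283 CPM.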
